A study of Mus musculus with 16 samples.

Results

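The comparison described here sets 4 aortas from diabetic mice treated with ruboxistaurin (RBX) against 4 aortas from untreated non-diabetic mice, and asks what still separates the treated diabetic aorta from the untreated non-diabetic one. Its members were chosen by title alone, as the arrays titled DM_HF_RBX_10wk and NDM_HF_10wk, and make up 8 of the 16 arrays of the series. RBX, also named LY333531, is an inhibitor of the beta isoform of protein kinase C. Every mouse carried the APOE-/- genotype, was an individual animal with an array of its own, and was 18 weeks old at the end. The diabetic mice received streptozotocin (STZ), which destroys the pancreatic cells that make insulin, at 6 weeks of age. From the age of 8 weeks every group was on high fat feeding for 10 weeks, and the RBX groups had RBX over the same period. The sources used here give no dose of RBX. The remaining arrays hold 4 untreated diabetic aortas (DM_HF_10wk) and 4 non-diabetic aortas with RBX (NDM_HF_RBX_10wk). Since diabetes and RBX both differ between the groups compared, their shares in any difference below cannot be told apart within this comparison.

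The whole aorta holds smooth muscle in the media, endothelium on the inside, and an adventitia of fibroblasts and resident macrophages around it. Mice without ApoE, the carrier protein that clears remnant lipoproteins, develop lipid-laden plaques on a high fat diet. Protein kinase C beta is one of the kinases that diacylglycerol activates when glucose is high, and its inhibition was developed against the vascular complications of diabetes. Interferons switch on a set of antiviral genes through the transcription factors STAT and IRF, while cells short of folding capacity switch on chaperones through the heat shock factor in the cytosol and through the unfolded protein response in the endoplasmic reticulum.

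The values were MAS5 signals, a linear measure of hybridisation on Affymetrix arrays, and 11042 genes were bright enough to test. The defining markers of smooth muscle (Acta2, Tagln, Myh11 and Cnn1), endothelium (Pecam1, Cdh5 and Vwf), fibroblasts (Pdgfra, Dcn and Lum) and macrophages (Cd68, Adgre1 and Csf1r) all passed the filter on low signal. So did genes of other tissue, namely Adipoq, Ucp1 and Cidea of fat, Actc1 and Acta1 of muscle, Upk3b of mesothelium and Alas2 of red cells. Myh6 of heart, Ckm of skeletal muscle, Cd3e and Cd79a of lymphocytes, Msln of mesothelium and Hba-a1 of red cells did not pass it. Measures of the arrays themselves moved with the groups. The log2 signal of the spiked cre control was 17.26 to 17.93 on the non-diabetic arrays and 18.00 to 18.17 on the diabetic RBX arrays. The log2 ratio between the 3′ and 5′ probe sets of Actb, which rises as RNA or its copies get shorter, was 0.85 to 1.32 and 1.47 to 1.89. In neither measure did the groups overlap. Of 19 such array measures and marker means, 8 reached the smallest two-sided p that an exact permutation of 4 against 4 allows (0.0286), and none passed Benjamini-Hochberg adjustment (smallest adjusted p = 0.0679, higher in 4 of 4 arrays). The first principal component ran in the same order, with group means of -23.5 for non-diabetic, -5.07 for diabetic, -1.81 for diabetic RBX and 30.4 for non-diabetic RBX aortas.

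**Figure D1:**
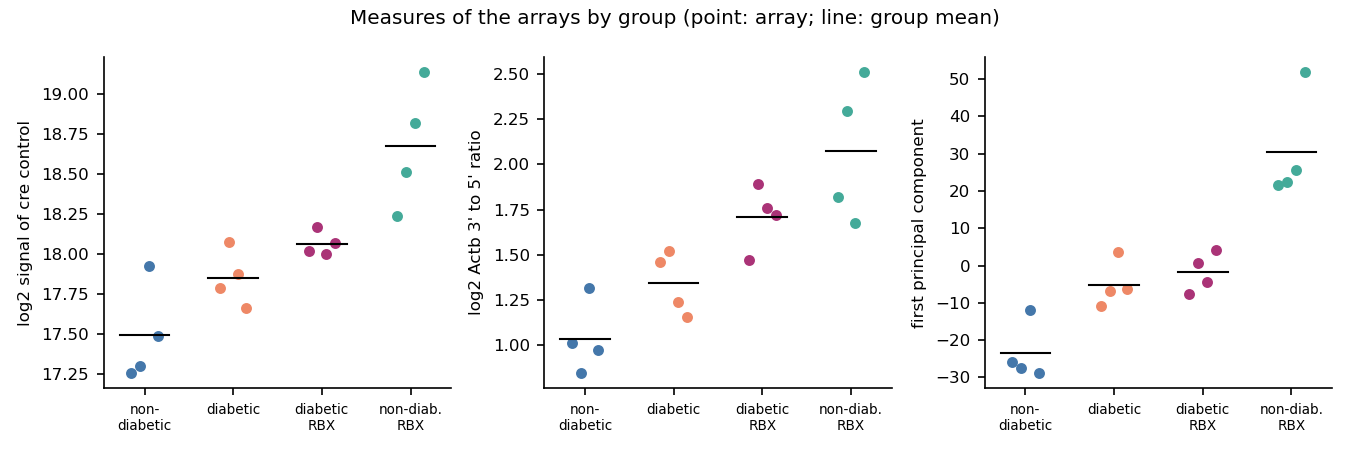
Log2 signal of the spiked cre control (left), log2 ratio between the 3′ and 5′ Actb probe sets (centre) and the first principal component of the genes tested (right, unitless) in each of the 16 arrays, as points, with the mean of each group of 4 as a line. The diabetic RBX arrays lay above all non-diabetic arrays in all 3 panels, and the non-diabetic RBX arrays had the highest means.

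Between the diabetic RBX and the non-diabetic aortas 434 of 11042 genes (3.93%) passed an adjusted p of 0.05 in limma's moderated linear model of log2 signal with Benjamini-Hochberg adjustment. Of these, 242 rose (2.19%) and 192 fell (1.74%). The changes were moderate: the median fold was 1.52 for the rises and 1.44 for the falls, and 26 rises and 12 falls went past 2-fold. The median standard error (SE) of a called log2 difference was 0.13. In 400 of the 434 genes the 4 diabetic RBX signals all lay on one side of the 4 non-diabetic signals. Over all genes they did in 1687 (15.3%), above in 7.41% and below in 7.87%. An unadjusted p under 0.05 was reached by 2239 genes (20.3%). The median log2 difference over all genes was -0.01, and 48.9% of genes lay above 0. These calls were not evenly supported by the mice: leaving out 1 mouse at a time gave between 72 calls (without non-diabetic mouse 2) and 713 calls (without non-diabetic mouse 3). The counts were 95 and 96 without non-diabetic mice 1 and 4, and 299, 79, 184 and 153 without diabetic RBX mice 1 to 4. Every one of the 434 genes kept its sign in each of these 8 fits. For the 400 without overlap this was fixed in advance, since leaving out 1 mouse cannot turn the sign between separated groups.

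**Figure D2:**
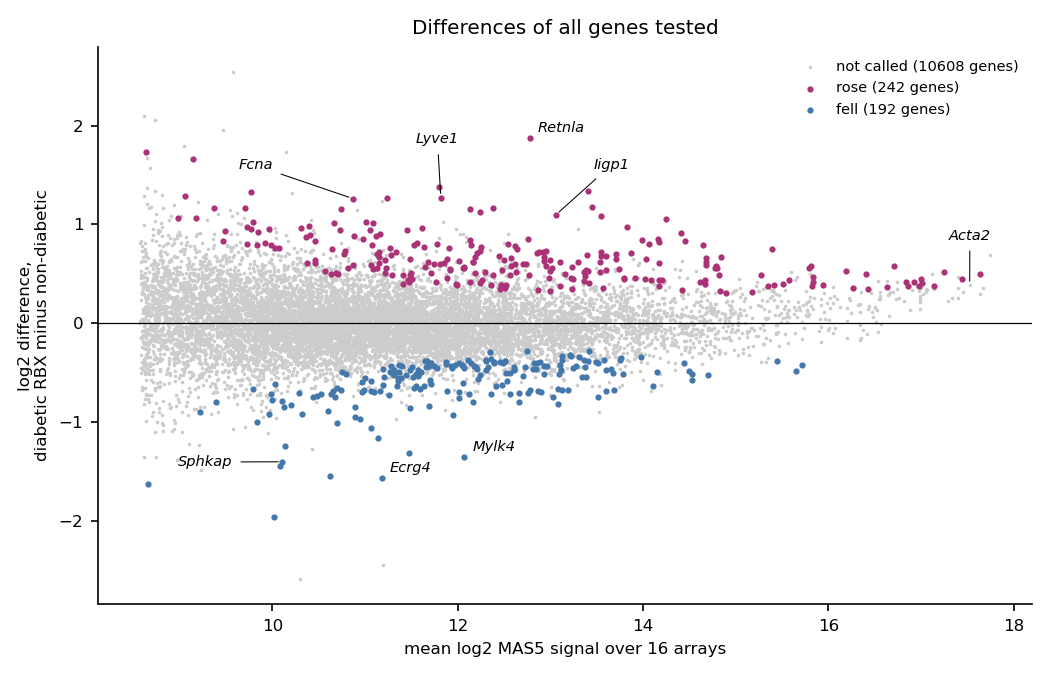
Log2 difference, diabetic RBX minus non-diabetic (vertical, from limma), against mean log2 MAS5 signal over 16 arrays (horizontal), with 1 point for each of the 11042 genes tested. The 242 genes that rose lie above 0 and the 192 that fell below 0, most of them within 1 log2 unit of it. Grey points, not called, lie among them and some lie further out, such as Ighm at -2.44.

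Among the genes that rose most were products of alternatively activated and resident macrophages, parts of the endothelin system and interferon-induced genes. Retnla, a secreted resistin-like protein of alternatively activated macrophages, had control signals of 3647, 2261, 3004 and 4046, against 15179, 7661, 13037 and 11872 in the diabetic RBX mice. The groups did not overlap, and the log2 difference was 1.87 (SE 0.45, adjusted p = 0.0302), although the call was lost without any 1 mouse other than non-diabetic mouse 3. Chil3, a chitinase-like lectin of the same cells, measured 351, 373, 400 and 337 against 1032, 1205, 938 and 604 (log2 difference 1.33, SE 0.32, adjusted p = 0.0306). All 4 treated diabetic mice were higher, but the adjusted p was 0.0625 after quantile normalization. The call was also lost in 6 of the 8 fits without 1 mouse, and with the cre signal or the Actb ratio as a covariate. The non-diabetic mean of Chil3 lay below the filter signal of 381.534, so that the gene passed through the other groups. Ece1, the enzyme that cuts big endothelin to its active form, had non-diabetic signals of 4578, 6953, 7103 and 6787 and diabetic RBX signals of 14254, 18484, 15350 and 15285. It rose by 1.33 on the log2 scale (SE 0.35, adjusted p = 0.0388), with all treated diabetic mice above all controls. That call, too, was lost in 7 of the 8 fits without 1 mouse. Ednrb, an endothelin receptor, measured 1009, 1029, 813 and 949 and 1983, 2635, 1672 and 2252, and rose by 1.15 (SE 0.25, adjusted p = 0.0198) with no overlap. Its other probe set differed by 0.27 (unadjusted p = 0.398), and the call was lost with the mean of probe sets and in 5 of the 8 fits without 1 mouse.

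Opcml, a cell adhesion protein of the immunoglobulin superfamily, rose from a mean signal of 298 ± 124 to 881 ± 243 (SD, n = 4 each). Its low value of 114 in non-diabetic mouse 3 stood apart from the other controls at 345 to 386, and the adjusted p was 0.0628 after quantile normalization. The call was also lost in 6 of the 8 fits without 1 mouse. The non-diabetic mean of Opcml lay below the filter signal of 381.534, so that it, too, passed through the other groups. Wnt11, a ligand of the non-canonical Wnt pathway, rose from 432 ± 141 to 937 ± 90.5, and Dnajc17, a J-domain protein, from 2949 ± 1556 to 6033 ± 638 (SD, n = 4 each). Both separated the groups, with log2 differences of 1.16 and 1.16, and each call was lost in 4 of the 8 fits without 1 mouse. Another 3 leading rises depended on the probe set. The brightest probe sets of Pnisr, a nuclear protein with serine and arginine repeats, and of Malat1, an abundant nuclear long non-coding RNA, rose by 1.38 and 1.17, while 4 of the 6 other probe sets of each lay below 0. These ranged from -0.40 to 0.65 for Pnisr and from -0.70 to 0.07 for Malat1. The brightest probe set of Zfp612, a zinc finger gene, rose by 1.16, and its other probe set had a log2 difference of -0.57 (unadjusted p = 0.314).

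The genes that fell most included a kinase of the myosin light chain kinase family and regulators of calcification and of second messengers. Mylk4, that kinase, measured 13106, 12564, 7523 and 10411 in the non-diabetic and 5222, 2939, 4082 and 4802 in the diabetic RBX mice. The groups did not overlap, the log2 difference was -1.36 (SE 0.22, adjusted p = 0.00476), and the call held in each fit without 1 mouse. Tnfrsf11b encodes osteoprotegerin, a soluble decoy receptor for the osteoclast factor RANKL, and measured 8251, 5494, 5325 and 4445 against 1954, 2420, 2545 and 2360. It fell by 1.31 on the log2 scale (SE 0.21, adjusted p = 0.00476) without overlap and in each such fit. Sphkap, which anchors protein kinase A, gave 2208, 2194, 3618 and 3525 and 1218, 1105, 977 and 958, and Ecrg4, a secreted peptide precursor, gave 4596, 4539, 8911 and 3544 and 1551, 1912, 1827 and 1583. Both fell with no overlap, by 1.40 and 1.57 (adjusted p = 0.00476 and 0.00503).

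Metabolic and signalling enzymes followed. Abat, the transaminase that breaks down GABA, fell from 2281 ± 122 to 976 ± 208, and Akr1c14, a steroid dehydrogenase, from 2274 ± 239 to 889 ± 344 (SD, n = 4 each). Ecm2, a matrix protein, fell by 1.17, Fgf13, an intracellular member of the fibroblast growth factor family, by 1.01, and Cap2, which binds actin, by 0.97. Otud1, a deubiquitinase, Thap1, a zinc finger transcription factor, and Magee1, of the MAGE family, had log2 differences of -0.95, -0.92 and -0.92. Of the 8 fits without 1 mouse, the call was lost in 6 for Thap1 and in 5 for Akr1c14, Fgf13, Otud1 and Magee1. It was lost in 4 for Ecm2, in 2 for Cap2 and in none for Abat. Kap, an androgen-regulated gene of the kidney, had the largest fall of the called genes (-1.96, SE 0.50, adjusted p = 0.0365), but its non-diabetic signals of 1294, 1768, 13240 and 1523 were spread by mouse 3. Without that mouse the call held, at a log2 difference of -1.18, whereas it was lost in 5 of the other fits that left out 1 mouse.

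**Figure D3:**
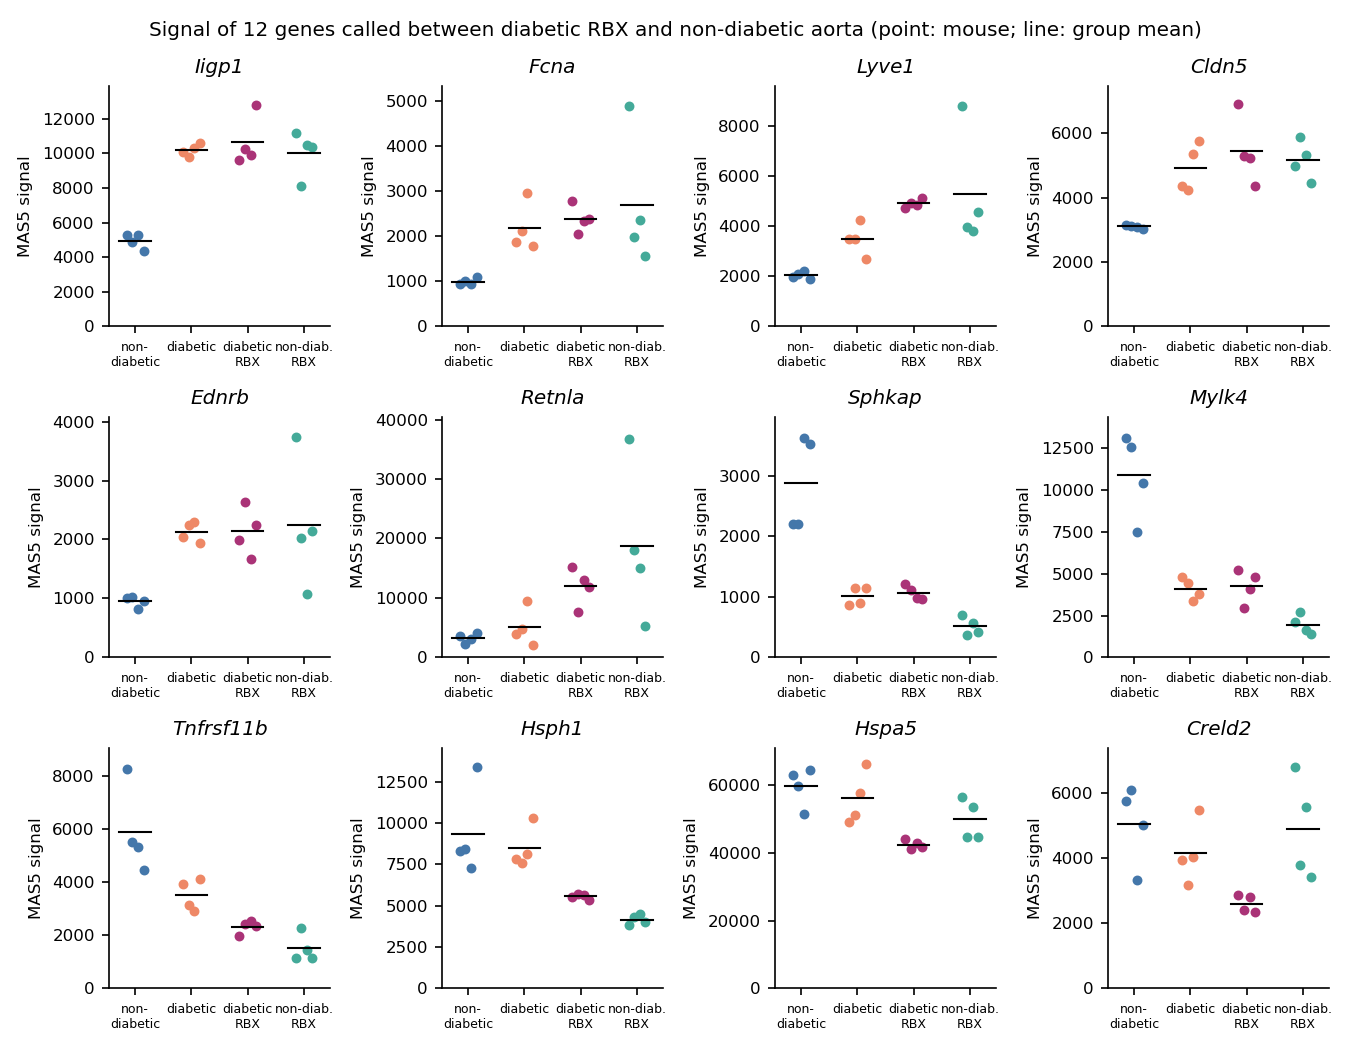
MAS5 signal (linear, from 0) of 12 called genes in the 4 groups, with a point for each mouse (n = 4 a group) and a line at the group mean. In Iigp1, Fcna, Lyve1, Cldn5, Ednrb and Retnla the 4 diabetic RBX mice lay above the 4 non-diabetic mice, and in Sphkap, Mylk4, Tnfrsf11b, Hsph1, Hspa5 and Creld2 below them.

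Interferon-induced genes were higher in the treated diabetic aorta. Of 27 measured members of the interferon list 11 rose (40.7%, against 2.19% of all genes) and none fell, 25 lay above 0, and the list median was 0.54 on the log2 scale against -0.01 over all genes. This and the other gene lists were chosen with earlier results of these data known, so that such shares are descriptive. Iigp1, an immunity-related GTPase that attacks the vacuoles of intracellular parasites, had the smallest adjusted p of the whole comparison. The controls had Iigp1 signals of 5311, 4869, 5287 and 4375 and the treated diabetic mice 9649, 10231, 9889 and 12818, with no overlap. It rose 2.14-fold (log2 difference 1.10, SE 0.11, adjusted p = 0.000103) and kept its call under all 24 alternative settings. Rtp4, an interferon-induced chaperone of receptors, measured 3276, 2254, 2524 and 3605 against 7547, 4276, 6443 and 7392 and rose by 1.13 (SE 0.22, adjusted p = 0.0129). Rsad2, the antiviral enzyme viperin, measured 3015, 1956, 3231 and 2493 against 3374, 7651, 5162 and 8855 and rose by 1.16 (SE 0.28, adjusted p = 0.0289). In both genes the lowest treated diabetic mouse lay above the highest control, in Rsad2 by a small margin.

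Further risers were sensors and effectors of the same response. Ifih1, a cytosolic sensor of double-stranded RNA, rose by 0.56 (adjusted p = 0.00957). Bst2, which tethers budding virus to the cell, rose by 0.97 (adjusted p = 0.00872), from signals of 1971, 1503, 2574 and 2244 to 3779, 3797, 3911 and 4459. The RNA-binding Ifit1 and Ifit3 rose by 1.03 and 0.61, and the GTPase Igtp by 0.70, with 1 diabetic RBX value of 1748 below the highest control of 1781. Among the oligoadenylate synthetase family Oasl2 rose by 0.95, Oas2 by 0.95 and Oas1a by 0.54. These paralogs are alike in sequence, so that cross-hybridisation between them was not tested. Of the members that were not called, Usp18 (0.56, adjusted p = 0.156) and Irf7 (0.55, adjusted p = 0.195) had no overlap between groups, while the chemokine Cxcl10 had a log2 difference of -0.23 (adjusted p = 0.852). The number called fell to 5 without non-diabetic mouse 2 or diabetic RBX mouse 2 and to 2 (Iigp1 and Rtp4) with the cre signal or the Actb ratio as a covariate, while the list median stayed between 0.47 and 0.56 in all 24 alternatives.

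Promoters of 3 of these genes are shown because interferon-induced genes carry an interferon-stimulated response element (ISRE). Each is the RefSeq window on GRCm38.p6 from 250 bases before to 50 bases after the annotated start, read on the gene's strand, and the capitals mark matches to GAAA, any 2 bases and GAAA, or the reverse complement (Ifit1 chr19:34640639-34640938, plus strand; Rsad2 chr12:26456403-26456702, minus strand; Oas1a chr5:120907476-120907775, minus strand).
Ifit1: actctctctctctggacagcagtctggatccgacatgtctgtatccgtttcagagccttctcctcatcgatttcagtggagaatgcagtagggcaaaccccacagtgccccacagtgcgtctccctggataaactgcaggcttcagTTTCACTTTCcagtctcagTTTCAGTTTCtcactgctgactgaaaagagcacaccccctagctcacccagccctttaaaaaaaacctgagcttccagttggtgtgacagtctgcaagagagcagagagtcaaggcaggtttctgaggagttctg
Rsad2: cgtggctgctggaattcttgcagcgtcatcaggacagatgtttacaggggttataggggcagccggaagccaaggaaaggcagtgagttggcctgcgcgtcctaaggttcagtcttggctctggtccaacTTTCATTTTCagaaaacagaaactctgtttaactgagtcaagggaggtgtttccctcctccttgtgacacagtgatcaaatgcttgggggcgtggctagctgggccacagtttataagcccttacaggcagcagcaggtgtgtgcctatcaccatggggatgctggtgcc
Oas1a: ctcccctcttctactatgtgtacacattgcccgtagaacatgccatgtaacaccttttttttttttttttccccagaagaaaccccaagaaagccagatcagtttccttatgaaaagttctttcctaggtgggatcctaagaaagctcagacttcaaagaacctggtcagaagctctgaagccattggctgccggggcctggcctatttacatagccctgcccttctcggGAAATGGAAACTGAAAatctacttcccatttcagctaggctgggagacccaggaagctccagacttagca
Ifit1 held 2 matches on the minus strand relative to the gene, Rsad2 1 match, and Oas1a 2 that overlapped on the plus strand. On either strand the motif was present in 3.44% of all 32851 promoter windows and in 3.62% of those of tested genes. It was present in 10.1% of the windows of genes that rose (19 of 189 with an entry) and 3.8% of those that fell (6 of 158). Of the interferon genes with an entry, 14 of all 21 measured and 7 of the 8 called held it. These are matches of letters, and binding was not measured. Iigp1, Rtp4 and Oas2 were not matched to an entry.

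Markers of the resident macrophages of the adventitia were higher in the diabetic RBX aorta as well. Of 13 measured markers 6 rose (46.2%, against 2.19% of all genes) and none fell, 12 lay above 0, and the list median was 0.75. In bulk tissue, more cells of a type and more RNA per cell cannot be told apart. Lyve1, a hyaluronan receptor of these cells and of lymphatic endothelium, measured 1971, 2079, 2212 and 1882 in the controls and 4727, 4942, 4855 and 5115 in the treated diabetic mice. With no overlap, it rose 2.41-fold (log2 difference 1.27, SE 0.20, adjusted p = 0.00476). Fcna, a ficolin that binds microbial sugars, measured 931, 1011, 928 and 1098 against 2768, 2056, 2333 and 2383 and rose by 1.26 (SE 0.25, adjusted p = 0.0139), a call that held under all 24 alternatives. F13a1, the A chain of clotting factor XIII, measured 8104, 7944, 7653 and 5826 against 13723, 17123, 15625 and 15953 and rose by 1.09 (SE 0.18, adjusted p = 0.00503). All 3 genes had every treated diabetic mouse above every control.

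The scavenger receptor Stab1 and the lectins Mrc1 and Clec10a rose by 0.75, 0.64 and 0.90. Cd163, the haemoglobin scavenger receptor, had a log2 difference of 1.03 without overlap but an adjusted p of 0.0622, and Folr2, a folate receptor, 0.16 (adjusted p = 0.84). Cbr2, the 1 marker below 0, had a log2 difference of -0.41 (adjusted p = 0.215). The mean log2 signal of the markers was 11.87 to 12.01 in the non-diabetic and 12.53 to 12.70 in the diabetic RBX arrays (exact permutation p = 0.0286, adjusted p = 0.0679 over 19 measures, higher in 4 of 4). Between 3 and 6 members were called without 1 mouse, 4 with the cre covariate and 1 with the Actb ratio. Of 23 general macrophage and foam cell markers only Csf1r, the receptor for macrophage growth factor, rose (0.48, adjusted p = 0.0193), with 22 of 23 above 0 and a median of 0.31. Called members were 4.35% of this list, against 3.93% of all genes. The median of the list ran from -0.09 to 0.47 over the 24 alternatives. The MHC class II chain H2-Aa rose by 0.48 (adjusted p = 0.0145), the only call among 16 antigen presentation genes (6.25%, against 3.93% of all genes). Of these 16, 14 lay above 0, and similar class II genes may share probes.

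Endothelial genes were the next group. Of 20 measured, 6 rose (30%, against 2.19% of all genes) and none fell, 19 lay above 0, and the median was 0.46. Cldn5, the tight junction protein of endothelium, measured 3166, 3131, 3103 and 3032 in the non-diabetic and 6927, 5293, 5253 and 4353 in the diabetic RBX mice. It rose 1.73-fold without overlap (log2 difference 0.79, SE 0.13, adjusted p = 0.00503) and in each fit without 1 mouse. Egfl7, a secreted endothelial factor, rose by 0.73, Mmrn2, a matrix protein at endothelial junctions, by 0.62, and Sox17, an arterial transcription factor, by 0.65. Ecscr and Eng, surface proteins of endothelial cells, rose by 0.68 and 0.60 with 1 treated diabetic mouse within the control range in each. Pecam1 and Cdh5, the general markers of these cells, were not called (0.27 and 0.46, adjusted p = 0.502 and 0.31). The 6 calls went down to 1 without non-diabetic mouse 1 or 2 or diabetic RBX mouse 3, to 1 with the cre covariate and to none of 20 with the Actb ratio (limma, where 1399 genes had an unadjusted p under 0.05), the median being 0.43 and 0.53 in these covariate fits.

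Fibroblast genes of the adventitia followed the same direction, with 3 of 14 risen (21.4%, against 2.19% of all genes), all 14 above 0 and a median of 0.41. Pi16, a marker of adventitial fibroblasts, measured 17829, 18417, 18951 and 16465 against 27648, 30057, 27306 and 28010 and rose by 0.66 (SE 0.12, adjusted p = 0.00823). Dpt, a collagen-binding matrix protein, measured 29586, 27942, 37815 and 31091 against 51678, 58191, 52572 and 49779 and rose by 0.75 (SE 0.15, adjusted p = 0.0134). Neither overlapped. Gsn, which severs actin, rose by 0.45 but by 0.14 (adjusted p = 0.51) after quantile normalization, and none of the 3 calls held with cre or the Actb ratio as a covariate, although 1 other member was called with cre. Between 1 and 4 of the 14 were called without 1 mouse, with 1 call without non-diabetic mouse 2 or diabetic RBX mouse 2.

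Markers of other tissue that can adhere to the aorta moved to different extents. Of 10 mesothelial genes 7 passed the filter, and none of these was called at an adjusted p of 0.05 (limma, 5 with an unadjusted p under 0.05). For Muc16, Lrrn4, Upk1b and Krt8 the non-diabetic mean lay below the filter signal, so that they passed through the other groups. The 3 above it in both groups, Upk3b, Gpm6a and Krt18, had log2 differences of 1.73, 0.74 and 0.61. Over all 7, the mean log2 signal was 8.10 to 9.55 in the controls and 9.27 to 10.3 in the treated diabetic mice. The groups therefore overlapped. White adipocyte markers had a median of -0.02 with 1 of 16 called (Me1, malic enzyme, -0.69), and brown adipocyte markers a median of -0.03 with 1 of 10 called (Dio2, which activates thyroid hormone, 0.71). These calls were 6.25% and 10% of the lists, against 3.93% of all genes. Over the 24 alternatives the white adipocyte median ran from -0.70 to 0.07 and the brown adipocyte median from -1.60 to 0.23. The Me1 call was lost in 6 of the 8 fits without 1 mouse. The part of these tissues in the differences above was not tested.

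**Figure D4:**
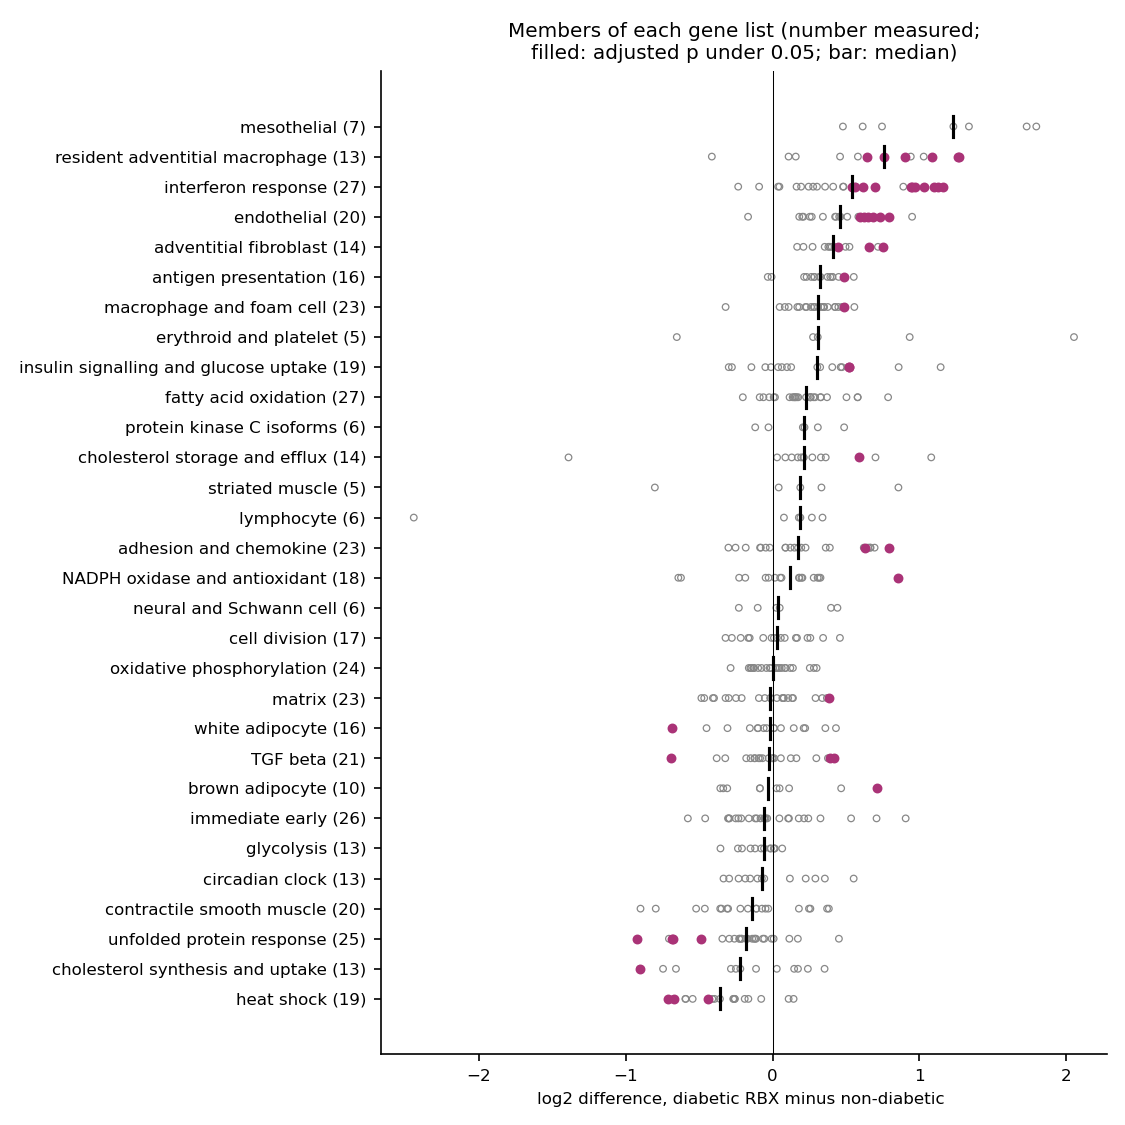
Log2 difference, diabetic RBX minus non-diabetic, of the measured members of 30 gene lists, 1 row a list ordered by its median (bar), with filled points for members with a limma adjusted p under 0.05 and open points for the rest. The interferon, resident macrophage, endothelial and fibroblast lists lie mainly to the right of 0, and the heat shock and unfolded protein response lists mainly to the left.

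Chaperones were lower in the treated diabetic aorta. Of 19 heat shock genes 3 fell (15.8%, against 1.74% of all genes) and none rose, 17 lay below 0, and the median was -0.36. Hsph1, a large chaperone that recharges the main heat shock protein, measured 8330, 8405, 7293 and 13379 in the controls and 5499, 5733, 5632 and 5376 in the treated diabetic mice. It fell 1.64-fold without overlap (log2 difference -0.71, SE 0.14, adjusted p = 0.0159) and in each fit without 1 mouse. Hspa1b, the stress-induced form of the main heat shock protein, measured 15254, 13457, 13518 and 21312 against 9031, 9503, 11186 and 9488 and fell by 0.67 (SE 0.17, adjusted p = 0.0366). Its near-identical copy Hspa1a had a log2 difference of -0.67 (adjusted p = 0.0505), and the array may not tell them apart. Chordc1, a partner of the cytosolic chaperone complex, measured 5744, 5409, 4648 and 6417 against 4255, 3966, 4092 and 3964 and fell by 0.44 (SE 0.11, adjusted p = 0.0387). None of these groups overlapped. The list had 1 call without non-diabetic mouse 1, 2 or 4 or diabetic RBX mouse 2, 3 or 4, 9 calls without non-diabetic mouse 3, and none with either covariate (median -0.26 and -0.28).

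The unfolded protein response of the endoplasmic reticulum gave a similar picture, with 4 of 25 members fallen (16%, against 1.74% of all genes), none risen, 21 below 0 and a median of -0.18. Hspa5, the main chaperone of that compartment, measured 63028, 59917, 51699 and 64584 against 44189, 41163, 42856 and 41851. It fell by 0.49 without overlap (SE 0.11, adjusted p = 0.0212). Its other probe sets differed by -0.79 (unadjusted p = 2.03e-05) and by 0.14 (unadjusted p = 0.36). Creld2, a secreted stress protein, measured 5764, 6109, 3332 and 5030 against 2866, 2404, 2813 and 2339 and fell by 0.93 (SE 0.22, adjusted p = 0.0271). Manf, a secreted factor that binds Hspa5, fell from 11568 ± 1572 to 7187 ± 411, and Herpud1, a part of the degradation machinery, from 9627 ± 1668 to 5992 ± 1081 (SD, n = 4 each). Both were below the controls in all 4 mice. The stress-induced factors Ddit3 and Trib3 had log2 differences of 0.11 and 0.17 (adjusted p = 0.691 and 0.834). No member was called without non-diabetic mouse 1, 2 or 4 or diabetic RBX mouse 2 or 4, nor with either covariate. With both covariates together the list median was 0.01.

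Windows of 4 of these genes are shown because chaperone genes carry known response elements. Capitals mark the heat shock element (GAA, any 2 bases, TTC, any 2 bases, GAA) in Hsph1 (chr5:149636266-149636565, minus strand, the first of its 2 RefSeq entries) and Chordc1 (chr9:18292017-18292316, plus strand), and the endoplasmic reticulum stress element (CCAAT, any 9 bases, CCACG) in Hspa5 (chr2:34771840-34772139, plus strand) and Creld2 (chr15:88819396-88819695, plus strand), on either strand.
Hsph1: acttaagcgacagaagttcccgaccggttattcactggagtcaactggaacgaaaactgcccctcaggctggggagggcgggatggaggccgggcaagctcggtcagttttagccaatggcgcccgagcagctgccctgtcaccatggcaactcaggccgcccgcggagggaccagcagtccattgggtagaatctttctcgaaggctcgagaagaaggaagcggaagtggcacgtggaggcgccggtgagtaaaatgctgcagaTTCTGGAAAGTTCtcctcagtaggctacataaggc
Chordc1: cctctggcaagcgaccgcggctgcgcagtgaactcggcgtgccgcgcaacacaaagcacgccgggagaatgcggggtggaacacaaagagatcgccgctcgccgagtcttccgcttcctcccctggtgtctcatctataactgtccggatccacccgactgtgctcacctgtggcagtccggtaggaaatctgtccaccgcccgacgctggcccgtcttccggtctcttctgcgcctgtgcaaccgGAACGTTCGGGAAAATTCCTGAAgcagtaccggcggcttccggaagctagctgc
Hspa5: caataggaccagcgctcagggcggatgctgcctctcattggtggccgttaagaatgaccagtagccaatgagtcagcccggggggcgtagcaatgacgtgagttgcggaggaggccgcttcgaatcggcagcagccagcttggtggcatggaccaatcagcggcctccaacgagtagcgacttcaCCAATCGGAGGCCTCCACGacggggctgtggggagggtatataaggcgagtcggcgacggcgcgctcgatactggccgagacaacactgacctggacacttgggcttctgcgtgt
Creld2: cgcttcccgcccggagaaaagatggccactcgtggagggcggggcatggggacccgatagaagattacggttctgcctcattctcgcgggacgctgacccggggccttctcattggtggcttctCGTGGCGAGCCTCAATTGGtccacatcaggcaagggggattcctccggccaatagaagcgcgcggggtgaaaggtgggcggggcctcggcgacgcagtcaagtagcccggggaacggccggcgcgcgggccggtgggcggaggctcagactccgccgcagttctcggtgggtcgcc
The 3 heat shock matches in Chordc1 overlapped one another, and the match in Creld2 lay on the strand opposite to the gene. The heat shock element was present in 0.603% of all windows, in 4 of the 16 heat shock genes with an entry and in 2 of the 3 called. Over all called genes with an entry, 1.59% of those that rose (3 of 189) and 1.9% of those that fell (3 of 158) held it. The stress element was present in 0.119% of all windows, in 7 of the 22 unfolded protein response genes with an entry and in 2 of the 3 called that had one. It was in 0 of the 189 genes that rose and 2 of the 158 that fell (1.27%). Manf was not matched to an entry.

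Contractile genes of smooth muscle did not pass the test: none of 20 was called at an adjusted p of 0.05 (limma, 9 with an unadjusted p under 0.05), 15 lay below 0, and the median was -0.14. Smtn, a structural protein of contractile cells, had signals of 31682, 29006, 12391 and 20716 and 13482, 8326, 11808 and 14666, which overlapped (log2 difference -0.90, adjusted p = 0.0756). Acta2, smooth muscle actin, had a log2 difference of 0.38 for its brightest probe set (adjusted p = 0.058), -0.05 after quantile normalization and -1.02 for another probe set (unadjusted p = 0.000995). Its direction was therefore not settled. Under quantile normalization the list median was -0.34 with 1 call, and without non-diabetic mouse 3 there were 1 rise and 3 falls. Over the 24 alternatives the list median ran from -0.34 to 0.16.

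Of 23 matrix genes 1 was called (4.35%, against 3.93% of all genes). This was Col4a1, a basement membrane collagen, which rose (0.38, adjusted p = 0.0318). The call was lost after quantile normalization (0.21, adjusted p = 0.159), and another probe set of it differed by -0.50 (unadjusted p = 0.00155). The list median was -0.01, and -0.21 after quantile normalization. In the TGF beta list 3 of 21 genes were called (14.3%, against 3.93% of all genes). The signal transducer Smad4 rose by 0.41 and the induced matrix protein Tgfbi by 0.39, while Ltbp1, which stores latent TGF beta in the matrix, fell by 0.69 (adjusted p = 0.0185, 0.0339 and 0.037). The calls of Tgfbi and Ltbp1 were each lost in 6 of the 8 fits without 1 mouse. The other 2 probe sets of Smad4 differed by 0.14 and 0.08 (unadjusted p = 0.344 and 0.412), and with the mean of probe sets its difference was 0.21 and not called. Ltbp1 signals were 23265, 21678, 16930 and 21663 in the controls and 14602, 12280, 13558 and 11249 in the treated diabetic mice, without overlap.

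Among adhesion molecules and chemokines 2 of 23 rose (8.7%, against 2.19% of all genes). Icam1, the leukocyte adhesion receptor, rose by 0.63 (adjusted p = 0.037), with signals of 4682, 5276, 4494 and 6965 against 7025, 9513, 8778 and 7466. The Icam1 call was lost in 6 of the 8 fits without 1 mouse. Ccl6, a chemokine of myeloid cells, rose by 0.79 (adjusted p = 0.0484), a call lost in 7 of the 8 fits without 1 mouse. In the oxidant list 1 of 18 genes was called (5.56%, against 3.93% of all genes). This was Gpx3, a secreted glutathione peroxidase, which rose by 0.85 (adjusted p = 0.0315), from 10365, 9174, 15216 and 9173 to 15336, 24381, 19055 and 19858 without overlap. Its call was lost in 6 of the 8 fits without 1 mouse. The oxidant-producing Nox4 had a log2 difference of -0.62 and the extracellular superoxide dismutase Sod3 -0.64 (adjusted p = 0.0847 and 0.097), neither of them called.

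The target of the drug and the missing gene of the model were not called. Prkcb, which encodes protein kinase C beta, measured 2396, 2095, 2412 and 1126 in the non-diabetic and 2034, 2292, 2278 and 3013 in the diabetic RBX mice. The groups overlapped (log2 difference 0.31, SE 0.20, adjusted p = 0.402), and none of the 6 measured protein kinase C isoforms passed an adjusted p of 0.05 (limma, 1 with an unadjusted p under 0.05, Prkch at 0.49). The other probe set of Prkcb differed by 0.43 (limma, unadjusted p = 0.0453) and that of Prkch by -0.07 (unadjusted p = 0.795). Apoe signals were 493, 410, 843 and 436 and 453, 232, 37 and 407, also overlapping (log2 difference -1.39, adjusted p = 0.157). The diabetic RBX mean of Apoe, 282, lay below the filter signal of 381.534, so that the gene passed through the other groups. Its value of 37 in diabetic RBX mouse 3 was the lowest. In the insulin list of 19 genes Igf1r, the receptor of insulin-like growth factor, and Igfbp4, which binds that factor, both rose by 0.52 (adjusted p = 0.0329 and 0.0166). These 2 were 10.5% of the list, while 2.19% of all genes rose. Igf1r signals were 11336, 10116, 9956 and 14086 against 18184, 15005, 17473 and 14172, so that the lowest treated diabetic mouse lay just above the highest control. Its other 3 probe sets differed by 0.02 to 0.35, with no unadjusted p under 0.05. The Igf1r call was lost with the mean of probe sets (0.28) and in 6 of the 8 fits without 1 mouse.

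Of 13 genes of cholesterol synthesis 1 was called (7.69%, against 3.93% of all genes). Cyp51, which demethylates lanosterol, fell (-0.90, adjusted p = 0.0387), with 935, 898, 924 and 595 against 456, 381, 536 and 405 and no overlap. The call held without non-diabetic mouse 4, the lowest control, and was lost without any 1 of the other mice. Idi1 and Sqle, further enzymes of that path, also had separate groups but adjusted p of 0.0738 and 0.163. In cholesterol storage and efflux 1 of 14 rose (7.14%, against 2.19% of all genes), the lipoprotein receptor Scarb1 (0.59, adjusted p = 0.0375). That call was lost in 7 of the 8 fits without 1 mouse and with the mean of probe sets. None of the 27 fatty acid oxidation genes was called at an adjusted p of 0.05 (limma, 2 with an unadjusted p under 0.05), with 23 above 0 and a median of 0.23. Over the 24 alternatives this median ran from -0.40 to 0.30, so that its direction was not settled. The oxidative phosphorylation, glycolysis, cell division, circadian, immediate early, striated muscle, lymphocyte, neural and red cell lists also held no call, with 1, 1, 1, 2, 5, 1, 1, 2 and 1 members at an unadjusted p under 0.05. The immunoglobulin gene Ighm of the lymphocyte list was high in non-diabetic mice 1 and 2 only (44845, 52138, 2021 and 1399, against 2270, 1492, 1891 and 1175, log2 difference -2.44, adjusted p = 0.1).

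The other groups put these levels in context. The same model gave 72 calls (0.652%) for diabetic against non-diabetic, 5 (0.0453%) for diabetic RBX against diabetic and 3494 (31.6%) for non-diabetic RBX against non-diabetic, all of which share arrays with the comparison above. Mean signals of Iigp1 were 4960 in non-diabetic, 10221 in diabetic, 10647 in diabetic RBX and 10028 in non-diabetic RBX aortas. The SD of this gene was 440, 339, 1467 and 1336 (n = 4 each), so that the untreated non-diabetic mice stood apart from the rest. For Mylk4 the means were 10901, 4113, 4261 and 1942 in the same order, the non-diabetic RBX group being lowest. Retnla had means of 3239, 5032, 11937 and 18793.

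A few genes differed between the diabetic groups. Hspa1b had a mean of 30334 in the diabetic mice, above the 15885 of the non-diabetic mice (log2 difference 0.92, adjusted p = 0.0202). It was 9802 in the diabetic RBX mice, with a log2 difference of -1.60 from the diabetic mice (adjusted p = 0.000283). Of the 5 genes called between those groups, 2 were among the 434, Hspa1b and Son, a nuclear splicing cofactor named here after its values were seen. Creld2 and Manf had log2 differences of -0.66 and -0.65 from diabetic to diabetic RBX (adjusted p = 0.364 and 0.206), and -0.27 and -0.02 from non-diabetic to diabetic (0.604 and 0.969).

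The 8 arrays outside the comparison, diabetic and non-diabetic RBX, share none with it. In them the diabetic aorta has diabetes without the drug and the non-diabetic RBX aorta the drug without diabetes. Of the 242 genes that rose in the diabetic RBX aorta, 26 had the diabetic mean above the non-diabetic RBX mean, 1 of them at an unadjusted p under 0.05, while 157 were below it at that level (13.7% of all genes were). Of the 192 that fell, 16 had the diabetic mean below, 1 of them at that level, while 120 were above it (14.3% of all genes). In all, 42 of the 434 (9.68%) had the same sign in diabetic minus non-diabetic RBX as in diabetic RBX minus non-diabetic, against 32.6% of all genes. The cre signal and the Actb ratio were also higher in the non-diabetic RBX than in the diabetic group means, at 18.68 against 17.85 and 2.08 against 1.34.

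Quantile normalization, which gives all arrays the same distribution of signals, left 413 calls, 247 of them rises and 166 falls. Of the 434 genes 366 were still called and all kept their sign. Among the 71 called genes named here by the selection rule 65 kept the call, those that did not being Chil3, Col4a1, Gsn, Igfbp4, Opcml and Tgfbi. With the mean of probe sets 22 of the 71 lost the call. Of the 33 that had another probe set, 5 (Col4a1, Hspa5, Malat1, Pnisr and Zfp612) had at least 1 of opposite sign. Adding the array measures as covariates had a larger effect. With the cre signal in the model 16 genes were called, and with the Actb ratio 5. All 434 kept their sign in both fits, the median size of their log2 difference went from 0.58 to 0.48 and 0.50, and their median SE from 0.13 to 0.17 and 0.19. Of the 71 named genes 9 kept the call with cre (Cldn5, Clec10a, F13a1, Fcna, Iigp1, Kap, Lyve1, Opcml and Rtp4) and 5 with the Actb ratio (Ecrg4, Fcna, Iigp1, Opcml and Rtp4). In the 8 fits without 1 mouse 41 of the 71 lost the call in 5 or more and 17 kept it throughout, among them Iigp1, Bst2, Oasl2, Ifih1, Lyve1, Fcna, F13a1, Cldn5, Pi16, Hsph1, Mylk4, Sphkap, Tnfrsf11b, Ecrg4 and Abat.

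**Figure D5:**
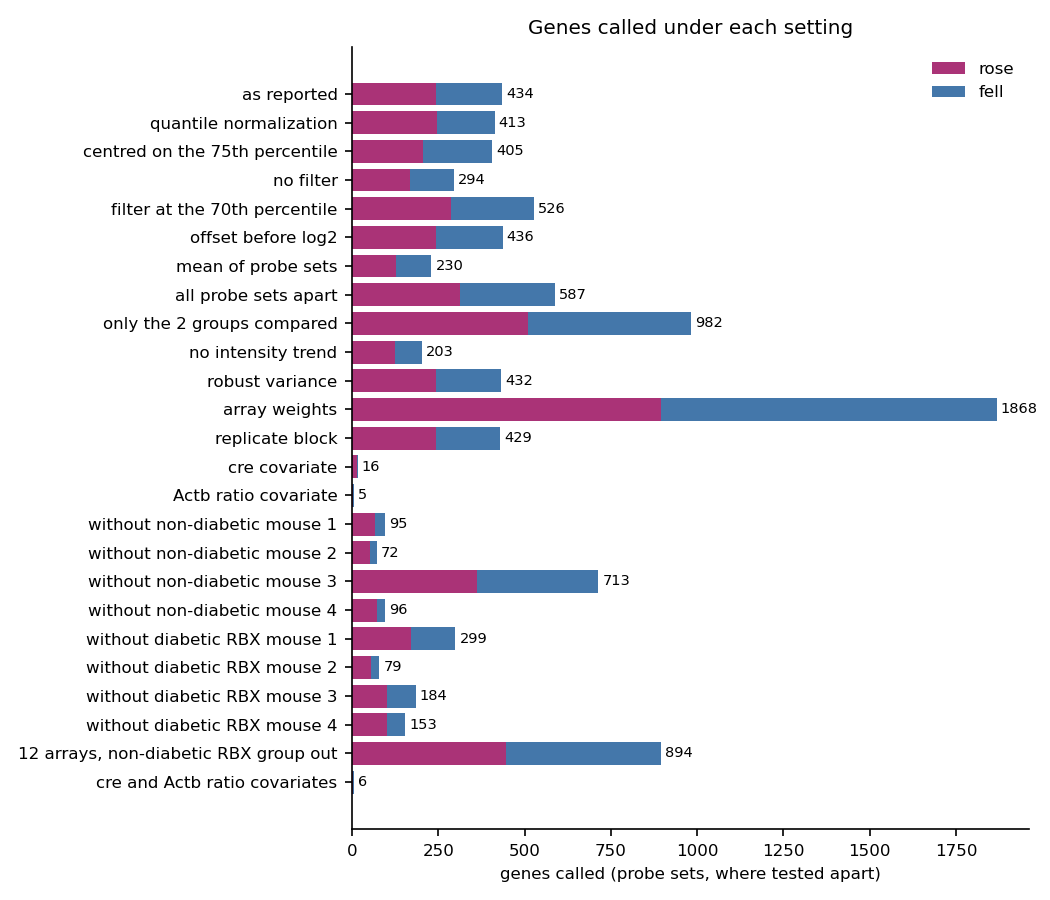
Number of genes (probe sets, where these were tested apart) with a limma adjusted p under 0.05 in the diabetic RBX against the non-diabetic aorta under the reported setting and 24 alternatives, split into rises and falls. The bars run from 5 with the Actb ratio as a covariate to 1868 with array weights, against 434 as reported.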

How the data were processed

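Total RNA (2 ug) of each aorta was hybridised to an Affymetrix mouse array. The deposited values are linear MAS5 intensity signals, per the submitters' processing notes. The MAS5 version and settings are not given in the sources used here. Tested on the files, the mean without the lowest and highest 2% of values, averaged over the arrays, was 1500.01. A common scaling by the authors would give such a value, but single arrays are not listed here. Probe sets were named through GEO's platform table: of 45101, 34958 had 1 symbol, 932 several and 9211 none, and those with several were left unnamed.

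Signals were taken to log2 as deposited. Control probe sets were left out, genes were kept whose mean log2 signal was above the median probe set (a signal of 381.534), and each gene was read from its brightest probe set, which left 11042 genes. One model over all 4 groups was fitted in limma 3.58.1 (R 4.3.3) with an intensity trend (12 residual degrees of freedom), and p-values were adjusted with Benjamini-Hochberg over all genes. Array measures and marker means were tested by exact permutation, two-sided. The number of arrays, 4 a group, limits the precision. On simulated data of this comparison, 37 of 100 genes shifted by 0.5 and 81 of 100 shifted by 1 on the log2 scale were recovered among 11042, with 5 false calls.

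The members were set by array title, and they and the 30 gene lists were chosen with earlier results of these data known. The shares of list members called are therefore descriptive. Genes named in the text are Prkcb, Apoe, the 15 largest rises and 15 largest falls among called genes whose groups do not overlap, up to 4 members a list of smallest p where that was under 0.05, and all called list members. Other members of a list are named beside its count. The labels do not pair the mice by replicate number. The correlation of same-numbered deviations from the group means was -0.062 to 0.0045, and that of differently numbered ones -0.037 to 0.060. Whether same-numbered mice were handled together cannot be told from this. No 2 arrays were identical, and rank correlations among the 8 arrays were 0.952 to 0.986. The alternatives were another normalization, filter, offset, choice of probe sets, variance model and set of samples, a replicate block, the cre signal or the Actb ratio as a covariate, and leaving out each mouse. A fit of 12 arrays without the non-diabetic RBX group, and one with both covariates, were chosen after seeing the data. Promoters came from RefSeq on GRCm38.p6, of which 8949 of the tested genes had an entry.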

Additional observations from a re-analysis of the deposited data

Results flagged for a closer look

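In each group of 4, the gap of the highest or lowest mouse to its neighbour was divided by the range of the group. This exceeded Dixon's critical value in 15 of 282 groups tested (122 named genes and 19 array measures, in both groups). Chance flags about 1 in 20 groups. Non-diabetic mouse 3 gave 5 of the flags in genes. Its Kap signal of 13240 lay far above the others at 1294 to 1768 (ratio 0.866) and its Pltp signal of 72019 above 46165 to 49283 (0.853). Its Cap2 signal of 2708 lay below 3914 to 4015 (0.935), its Opcml signal of 114 below 345 to 386 (0.907), and its Ryr2 signal of 558 below 1256 to 1321 (0.942). The mean log2 signal of its contractile smooth muscle markers was 14.4, below 14.69 to 14.72 in the other controls (0.924).

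Among the other non-diabetic mice, mouse 1 was low for Ece1 (4578, ratio 0.896) and Mcm7 (3533, ratio 0.841). Mouse 4 was low for Cyp51 (595, ratio 0.910) and high for Vcan (13013, ratio 0.918). Among the diabetic RBX mice, mouse 2 was low for Eng (5112, ratio 0.896) and Sdhc (5964, ratio 0.861) and high for Ifit1 (2755, ratio 0.833). Mouse 1 was low for Smad4 (25718, ratio 0.873). The white adipocyte marker mean of mouse 4 was 13.18 against 12.40 to 12.43 in the other 3 (ratio 0.961).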

How the results depend on the processing

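With 434 calls as reported (242 rises, 192 falls), the count moved by over 1.5 times under these settings: 230 with the mean of probe sets (127 and 103), 982 with only the groups compared (509 and 473), 203 without intensity trend (124 and 79), 1868 with array weights (896 and 972), 16 with the cre covariate (15 and 1), 5 with the Actb ratio (4 and 1), 894 without the non-diabetic RBX group (445 and 449) and 6 with both covariates (4 and 2). Falls were 127 with no filter. Leaving out 1 mouse gave 72 to 713 calls, 53 to 363 rises and 19 to 350 falls. The settings that gave 894 and 6 were chosen after seeing the data. Robust variance (432), an added 30.5 before log2 (436), quantile normalization (413), testing without a filter (294) or above the 70th percentile (526), 75th percentile centring (405) and separate probe sets (587) stayed within 1.5 times. Rises were 55.8% of calls as reported and 50.9% after centring. The replicate block gave 429 calls (243 and 186), of which 366 were among the 434. The labels do not pair the mice by number. Signs turned for Acta2 (-0.048 after quantile normalization, -0.40 with the mean of probe sets), Tpm2 (-0.051 and -0.17), Col4a1 (-0.060) and Ncam1 (-0.030) with the mean of probe sets, Lyz1 (-0.0015), Nr4a1 (0.12) and Pltp (-0.061) with cre, Sod1 (-0.052) and Sod3 (0.0018) with the Actb ratio, and with both covariates Nr4a1 (0.019), Pltp (-0.066), Rbpms (0.042), Sod1 (-0.049) and Sod3 (0.11). The cause of these shifts was not tested.

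Of 71 named called genes, 2 (Fcna and Iigp1) kept the call in every one of the 24 alternatives. The number of mice, 4 a group, limits what can be called.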

Other observations

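Genes of the cytosolic ribosome, a group chosen after its values were seen, held 46 measured members, of which 10 rose and none fell, against 2.19% risen of all genes. In all, 41 lay above 0, against 48.9% of all genes, and the median log2 difference was 0.31. After quantile normalization 3 were called and the median was 0.07. Fits without 1 mouse gave between 1 call (without non-diabetic mouse 2) and 26 (without non-diabetic mouse 3). With the cre signal or the Actb ratio as a covariate none was called at an adjusted p of 0.05 (limma, 2 and 3 with an unadjusted p under 0.05), and the medians were 0.11 and 0.17. These genes have many processed copies in the genome, and their probe sets can share signal.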
